A study of Mus musculus with 12 samples.

Results

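The 46 genes described here build the machinery by which a cell copies its DNA and divides. They were taken as the rows of the deposited expression table whose symbol stood on a list of 46 cell cycle and DNA replication genes. Each symbol matched 1 of the 55401 rows, and all 46 genes were among the 15504 that passed the filter on low values. The list holds 18 genes that act mainly from late G1 through S phase and 28 that act mainly in G2 and mitosis. The list itself rests on what the genes do and not on a measured value.

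The libraries came from 12 orthotopic 4T1 tumors, 3 per group. 4T1 is a mouse mammary carcinoma line, here grown in the mammary gland of Balb/c mice, and treatment was started at a tumor volume of 100 mm3. The groups received an IgG control antibody (control), interleukin-10 joined to an Fc fragment (IL-10-Fc), an antibody against the CSF-1 receptor (aCSF1R), or BF10, a mouse antibody against the same receptor that carries human IL-10 at its C terminus. The sample labels give 6 doses and the series text 4, and neither gives the age or sex of the mice. 4T1 is 1 line, so every tumor carried the same cancer cells. Whole tumor tissue was sequenced, and a lower level of a gene in such tissue cannot be told apart from a smaller share of the cells that express it. The question set by the design was whether the fusion differed from control and from its separate parts.

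Proliferating cells switch these genes on in waves. E2F factors drive the G1/S wave, which supplies cyclin E, the MCM helicase that is loaded onto replication origins, and the enzymes that make deoxynucleotides. FOXM1 and the DREAM/MuvB complexes govern the later wave, which supplies cyclin B, its partner CDK1, the spindle checkpoint and the motors that separate chromosomes. The level of these genes in a tumor is widely read as a measure of how many of its cells are cycling.

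Depth, estimated from the smallest steps in the table, was 31000000 to 36000000 reads per library. The libraries fell into a pair of sets by a technical measure, the sum of the FPKM values (fragments per kilobase, scaled to depth) as deposited. This sum was above 700000 in 5 libraries, called higher-sum here, and below it in 7, called lower-sum. Control had 2 higher-sum libraries (replicates 4 and 7) and the other groups 1 each (IL-10-Fc replicate 7, aCSF1R replicate 8 and BF10 replicate 6). Ribosomal protein genes took 19.5% to 23.8% of the total in higher-sum libraries and 11.9% to 14.2% in lower-sum ones, and mitochondrial genes 5.90% to 9.26% against 3.14% to 3.97%. The summed level of 6 epithelial markers, the defining genes of the tumor cells, was 680 to 1479 against 1644 to 2343 TPM (FPKM rescaled to a total of 1000000 per library). The summed level of 10 macrophage markers was 81.3 to 257 TPM in aCSF1R and 1467 to 2253 TPM in the other groups. BF10 replicate 3 stood apart in its neutrophil markers, at 16345 TPM against 426 to 3335 TPM elsewhere. The library set was fitted as a term in results given below, but what gave rise to the sets was not tested. The part that these cells or RNA quality had in the results was not tested either.

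The promoters of members are shown first, because the waves of the cell cycle are read from motifs in them. RefSeq sequences of the GRCm38.p6 build, from 250 bases before to 50 bases after the transcription start, were at hand for 38 of the 46 members. The 5 motifs were searched on both strands, and overlapping matches were all counted: CCAAT, the NF-Y site; TTTGAA and the palindrome TTTAAA, forms of the cell cycle genes homology region (CHR); and TTTCCCGC and TTTGGCGC, forms of the E2F site. A match is a description of these letters and not a measured binding site. The 5 sequences below, given 5′ to 3′ with every match in capitals, are from the kinase pair that opens mitosis (Ccnb1 and Cdk1), from 2 helicase subunits (Mcm2 and Mcm5) and from a subunit of ribonucleotide reductase (Rrm2). They lie at chr13:100786437-100786736 (minus strand), chr10:69352863-69353162 (minus strand), chr6:88898731-88899030 (minus strand), chr8:75109259-75109558 (plus strand) and chr12:24708004-24708303 (plus strand), in the order of the lines.
Ccnb1: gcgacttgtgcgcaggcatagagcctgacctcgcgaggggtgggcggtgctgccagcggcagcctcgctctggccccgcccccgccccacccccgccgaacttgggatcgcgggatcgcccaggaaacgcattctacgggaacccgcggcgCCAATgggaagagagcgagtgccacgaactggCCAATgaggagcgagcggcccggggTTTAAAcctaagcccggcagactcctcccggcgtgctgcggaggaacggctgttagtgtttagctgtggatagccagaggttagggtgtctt
Cdk1: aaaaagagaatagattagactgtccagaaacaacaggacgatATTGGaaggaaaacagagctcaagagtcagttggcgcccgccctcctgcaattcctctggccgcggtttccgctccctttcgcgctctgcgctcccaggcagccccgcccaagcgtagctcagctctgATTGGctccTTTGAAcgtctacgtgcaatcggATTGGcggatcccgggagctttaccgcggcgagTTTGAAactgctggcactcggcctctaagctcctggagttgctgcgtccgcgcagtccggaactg
Mcm2: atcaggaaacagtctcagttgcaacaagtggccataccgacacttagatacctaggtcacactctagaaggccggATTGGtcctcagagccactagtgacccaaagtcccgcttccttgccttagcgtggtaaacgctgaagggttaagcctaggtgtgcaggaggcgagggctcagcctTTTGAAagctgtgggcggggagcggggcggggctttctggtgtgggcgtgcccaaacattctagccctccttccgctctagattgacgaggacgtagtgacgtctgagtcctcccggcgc
Mcm5: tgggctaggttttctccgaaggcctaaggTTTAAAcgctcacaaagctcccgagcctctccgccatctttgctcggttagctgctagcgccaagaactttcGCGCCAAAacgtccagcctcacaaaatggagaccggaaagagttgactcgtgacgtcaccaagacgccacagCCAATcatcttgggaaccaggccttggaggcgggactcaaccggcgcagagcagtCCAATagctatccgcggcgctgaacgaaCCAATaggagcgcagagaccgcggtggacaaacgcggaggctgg
Rrm2: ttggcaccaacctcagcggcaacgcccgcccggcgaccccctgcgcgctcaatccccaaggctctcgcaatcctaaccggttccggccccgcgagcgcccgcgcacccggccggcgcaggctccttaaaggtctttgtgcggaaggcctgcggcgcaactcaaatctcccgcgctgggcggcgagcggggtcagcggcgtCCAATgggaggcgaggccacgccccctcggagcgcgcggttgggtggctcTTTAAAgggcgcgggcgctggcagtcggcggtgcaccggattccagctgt
Ccnb1 held 2 CCAAT matches, beginning 99 and 67 bases before the start, with TTTAAA 42 bases before it. In Cdk1 there were 3 CCAAT matches on the opposite strand and 2 TTTGAA matches, the nearer 15 bases before the start. Mcm5 was the 1 promoter of the 5 with an E2F match, on the opposite strand at 149 bases before the start, and it also held 3 CCAAT matches.

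Over genes, a motif was counted once where any promoter of the gene held it, since 3 of the 38 members have more than 1 promoter. CCAAT was found in 29 of the 38 members, against 41.1% of all 27025 genes in the table. TTTGAA was in 17 of 23 G2/M members (73.9%) and in 1 of 15 G1/S members (6.67%), Mcm2, beside 20.2% of all genes. CCAAT and either CHR form stood in the same promoter of 19 of the 23 G2/M members and of 4 of the 15 G1/S members, beside 12.2% of all genes. An E2F match was found in 6 of 15 G1/S members and in 0 of 23 G2/M members, beside 1.80% of all genes. Longer or more variable forms of these sites were not searched.

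TPM values divide by transcript length, so levels can be compared roughly between genes. The order of some members changed between the library sets, as given below, so a ranking by means is only approximate. All 46 members were well above the filter, with means over the 12 libraries from 8.31 (Ccne1) to 392 TPM (Top2a) and a median of 59.1 TPM, against a median of 13.2 TPM for all genes tested. By these means Top2a, Pcna, Cdk1, Tk1 and Ccna2 stood highest. Together the members took 0.219% to 0.441% of the total of a library. In the 7 lower-sum libraries this share was 0.377% to 0.441%, in the 5 higher-sum libraries 0.219% to 0.4003%. The median SD of a member was 0.14 on the log2 scale among lower-sum libraries and 0.47 among higher-sum libraries. For the 8828 genes in the same range of levels it was 0.17 and 0.32, and over all genes tested 0.21 and 0.31. Mcm3, a helicase subunit, varied least among the 7, with an SD of 0.031.

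**Figure D1:**
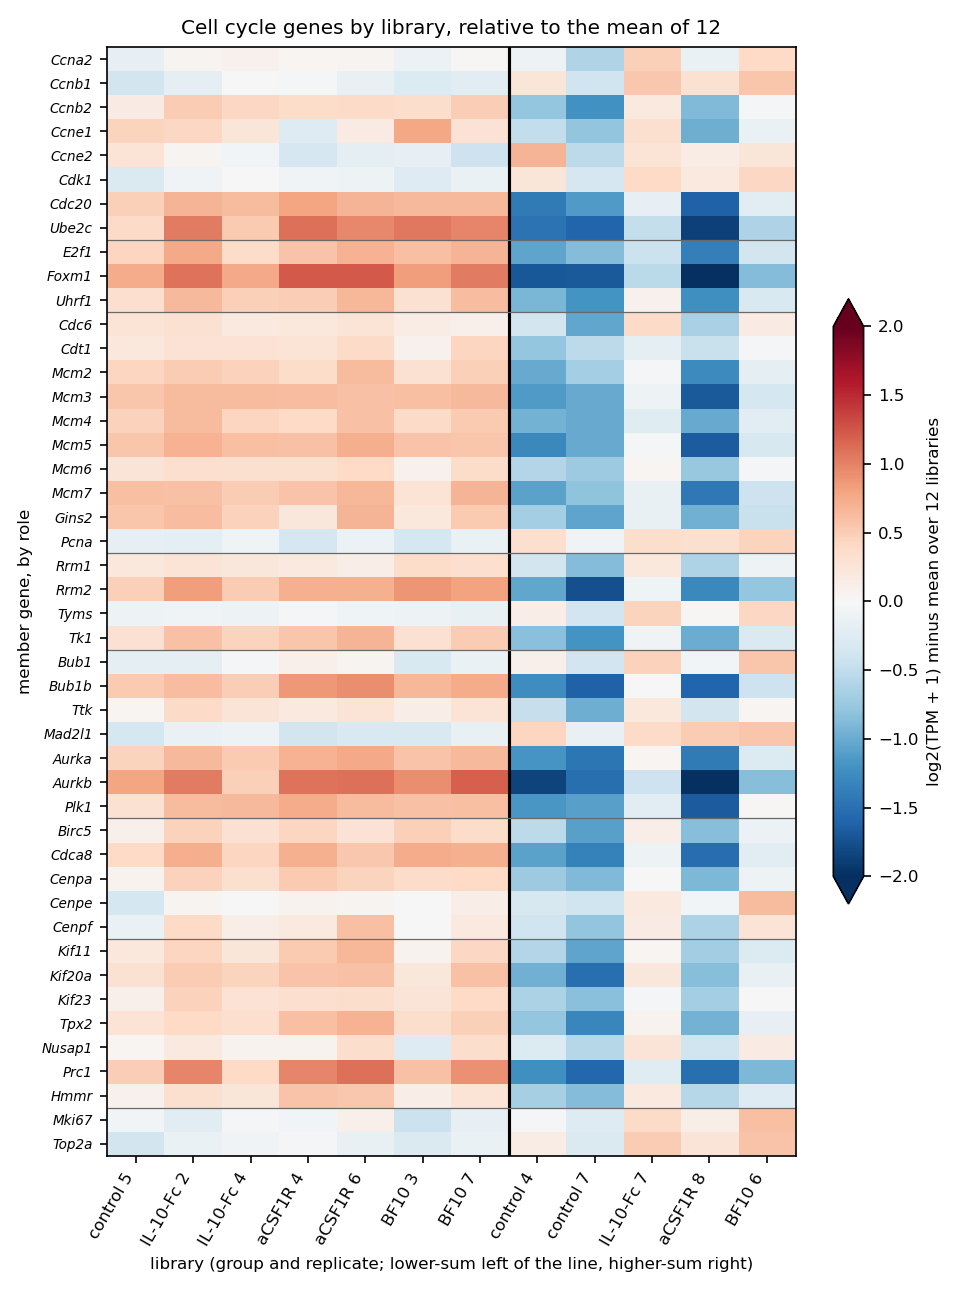
Level of each of the 46 members (rows, by role) in each of the 12 libraries (columns, lower-sum left of the black line), as log2(TPM + 1) minus the member's mean over 12 libraries. Most rows turn from red to blue across the line, with Foxm1, Aurkb and Ube2c the deepest, while Pcna, Top2a, Ccnb1, Cdk1 and Mad2l1 do not.

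The values below are given in the order control replicates 4, 5 and 7, IL-10-Fc replicates 2, 4 and 7, aCSF1R replicates 4, 6 and 8, and BF10 replicates 3, 6 and 7. Differences from control are log2 differences of log2(TPM + 1) with their SE, from the limma fit over all 12 libraries, which is described with its tests further on.

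Cyclins, their kinase and the APC/C came first. Ccnb1, the cyclin that takes cells into mitosis, stood at 113, 73.6 and 72.5 TPM in control, 83.7, 95.5 and 139.8 in IL-10-Fc, 92.9, 86.7 and 118 in aCSF1R and 79.1, 141 and 82.1 in BF10. In each treated group the higher-sum library was the highest, in control the higher-sum libraries were the highest and the lowest, and all groups overlapped. Its differences from control were 0.20 ± 0.30 with BF10, 0.29 ± 0.30 with IL-10-Fc and 0.22 ± 0.30 with aCSF1R. Cdk1, the kinase bound by that cyclin, was at 280.4, 193 and 187 TPM in control, 225, 235 and 313 in IL-10-Fc, 224, 219.8 and 269 in aCSF1R and 197, 316 and 216 in BF10. The groups overlapped here too, and the highest libraries were again IL-10-Fc replicate 7 and BF10 replicate 6. Cdk1 differed from control by 0.14 ± 0.25 with BF10, 0.24 ± 0.25 with IL-10-Fc and 0.13 ± 0.25 with aCSF1R. Ccna2, the cyclin of S phase and early mitosis, was at 136, 129.7 and 95.95 TPM in control, 151, 154 and 203 in IL-10-Fc, 149, 151 and 133 in aCSF1R and 134, 193 and 147 in BF10. The 3 IL-10-Fc libraries lay above all control and all aCSF1R libraries, the latter only narrowly. Ccne1, a cyclin of the G1/S step, was low, at 5.26, 11.004 and 4.10 TPM in control, 10.7, 9.35 and 9.92 in IL-10-Fc, 6.36, 8.84 and 3.48 in aCSF1R and 13.98, 7.02 and 9.73 in BF10. Its lowest values were in control replicates 4 and 7 and aCSF1R replicate 8, and the IL-10-Fc libraries lay above the aCSF1R ones. Ccne2, the other cyclin E, was at 19.4, 14.5 and 7.91 TPM in control, 12.3, 11.3 and 14.5 in IL-10-Fc, 9.15, 10.2 and 13.2 in aCSF1R and 10.4, 14.2 and 8.59 in BF10. Control held both the highest and the lowest library. Ube2c, the ubiquitin-conjugating enzyme that works with the APC/C, was at 24.02, 90.03 and 22.3 TPM in control, 143, 100.1 and 49.5 in IL-10-Fc, 149, 135 and 18.2 in aCSF1R and 145, 44.5 and 136 in BF10. All 5 higher-sum libraries lay below all 7 lower-sum ones. Over the 8 genes of this role the difference from control ran from -0.26 (Ccne2) to 1.37 (Ube2c) with BF10, from -0.052 (Ccne2) to 1.26 (Ube2c) with IL-10-Fc and from -0.27 (Ccne2) to 0.96 (Ube2c) with aCSF1R.

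Among regulators of transcription, E2f1, an activator of the G1/S wave, was at 7.67, 23.2 and 8.90 TPM in control, 29.7, 22.2 and 12.4 in IL-10-Fc, 25.8, 28.2 and 6.01 in aCSF1R and 26.3, 13.000 and 27.99 in BF10. Foxm1, an activator of the G2/M wave, was at 7.37, 44.4 and 7.50 TPM in control, 56.9, 45.2 and 17.8 in IL-10-Fc, 62.6, 62.3 and 5.18 in aCSF1R and 47.8, 13.9 and 54.9 in BF10. Both were split by library set within every group, E2f1 at 22.2 to 29.7 TPM in lower-sum and 6.01 to 13.000 TPM in higher-sum libraries, and Foxm1 at 44.4 to 62.6 against 5.18 to 17.8 TPM. E2f1 differed from control by 0.80 ± 0.61 with BF10, 0.73 ± 0.61 with IL-10-Fc and 0.47 ± 0.61 with aCSF1R. For Foxm1 the differences were 1.22 ± 0.99 with BF10, 1.32 ± 0.99 with IL-10-Fc and 0.98 ± 0.99 with aCSF1R, with the widest intervals of any member: in IL-10-Fc the 95% interval ran from -0.86 to 3.50. Uhrf1, which guides the copying of DNA methylation, differed from control by 0.79 with BF10, 0.99 with IL-10-Fc and 0.57 with aCSF1R.

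Of the genes that license origins and run the replication fork, Mcm2, a subunit of the helicase, was at 26.8, 74.6 and 33.98 TPM in control, 78.6, 76.1 and 53.9 in IL-10-Fc, 71.5, 85.7 and 22.2 in aCSF1R and 68.6, 48.5 and 76.7 in BF10. All lower-sum libraries lay above all higher-sum ones. Its differences from control were 0.62 ± 0.50 with BF10, 0.73 ± 0.50 with IL-10-Fc and 0.33 ± 0.50 with aCSF1R. Pcna, the sliding clamp of the DNA polymerases, was at 412, 289.6 and 309 TPM in control, 287, 306 and 415 in IL-10-Fc, 256, 298 and 404 in aCSF1R and 255, 441 and 295 in BF10. Pcna ran the other way, at 309 to 441 TPM in higher-sum and 255 to 306 TPM in lower-sum libraries, and the groups overlapped. It differed from control by -0.051 ± 0.27 with BF10, -0.0058 ± 0.27 with IL-10-Fc and -0.086 ± 0.27 with aCSF1R. Over the 10 genes of this role the differences ran from -0.051 (Pcna) to 0.84 (Mcm5) with BF10, from -0.0058 (Pcna) to 1.00 (Mcm5) with IL-10-Fc and from -0.086 (Pcna) to 0.49 (Mcm4) with aCSF1R. Cdc6, which loads the helicase, was the 1 member with all BF10 libraries below all IL-10-Fc libraries, at 15.6 to 16.3 against 16.7 to 19.3 TPM. That is 1 of 46 members (2.17%), beside 1.51% of all genes tested.

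Of the nucleotide supply genes, Rrm2, the S-phase subunit of ribonucleotide reductase, was at 26.7, 77.9 and 15.9 TPM in control, 101, 80.1 and 52.5 in IL-10-Fc, 91.99, 92.6 and 22.2 in aCSF1R and 104, 32.4 and 98.6 in BF10. Each group was split by library set, at 77.9 to 104 TPM in lower-sum and 15.9 to 52.5 TPM in higher-sum libraries. Its differences from control were 1.08 ± 0.70 with BF10, 1.19 ± 0.70 with IL-10-Fc and 0.82 ± 0.70 with aCSF1R. Tyms, which makes thymidylate, differed from control by 0.17 with BF10, 0.22 with IL-10-Fc and 0.093 with aCSF1R, and Tk1, the thymidine salvage kinase, by 0.75, 0.90 and 0.66. Rrm1, the large subunit, was higher in all 3 IL-10-Fc libraries (93.4 to 97.7 TPM) than in any aCSF1R library (52.7 to 93.4 TPM), with almost no gap between the groups.

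Among checkpoint and mitotic kinases, Ttk, the kinase that sets the spindle checkpoint, was at 16.3, 23.5 and 11.2 TPM in control, 30.2, 27.6 and 26.7 in IL-10-Fc, 26.4, 27.9 and 17.7 in aCSF1R and 25.2, 23.7 and 28.1 in BF10. All IL-10-Fc and all BF10 libraries lay above all control libraries, BF10 only just, and aCSF1R overlapped control. Mad2l1, which holds the APC/C in check until chromosomes are attached, was at 104, 60.3 and 69.98 TPM in control, 70.5, 71.7 and 101 in IL-10-Fc, 59.8, 62.4 and 110.0 in aCSF1R and 62.1, 114 and 69.3 in BF10. It was high in higher-sum libraries except control replicate 7. Aurkb, the kinase of the chromosomal passenger complex, was at 9.21, 62.8 and 11.9 TPM in control, 75.02, 50.4 and 26.7 in IL-10-Fc, 77.5, 78.02 and 8.30 in aCSF1R and 69.2, 19.4 and 83.7 in BF10. Its lower-sum values, 50.4 to 83.7 TPM, did not overlap its higher-sum values, 8.30 to 26.7 TPM. Over the 7 genes of this role the differences from control ran from 0.051 (Mad2l1) to 1.28 (Aurkb) with BF10, from 0.072 (Mad2l1) to 1.23 (Aurkb) with IL-10-Fc and from -0.033 (Mad2l1) to 0.93 (Aurkb) with aCSF1R.

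At the centromere, Birc5 (survivin), another part of the passenger complex, was at 86.6, 134 and 57.9 TPM in control, 172, 154 and 137 in IL-10-Fc, 169, 152 and 68.4 in aCSF1R and 173, 115 and 161 in BF10. The IL-10-Fc libraries lay above all control libraries, and the other groups overlapped control. Birc5 differed from control by 0.74 ± 0.38 with BF10, 0.80 ± 0.38 with IL-10-Fc and 0.46 ± 0.38 with aCSF1R. Cenpe, a kinesin that aligns chromosomes, was at 37.5, 36.6 and 35.2 TPM in control, 48.9, 46.6 and 54.1 in IL-10-Fc, 49.3, 48.6 and 44.99 in aCSF1R and 46.4, 72.9 and 51.3 in BF10. The 3 control libraries were close together and below all 9 treated libraries. Cenpe was the 1 member of 46 (2.17%) with this pattern, which 38 of 15504 genes showed (0.245%), and it passed no test: the differences from control were 0.60 ± 0.21 with BF10, 0.44 ± 0.21 with IL-10-Fc and 0.38 ± 0.21 with aCSF1R, with adjusted p = 0.788, 0.738 and 0.893 in limma. With the library set as a term in the fit these were 0.65 ± 0.16, 0.49 ± 0.16 and 0.43 ± 0.16, with adjusted p = 0.993, 0.942 and 0.406.

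Of the spindle and cytokinesis genes, Hmmr, a spindle pole protein, was at 15.5, 26.8 and 13.3 TPM in control, 31.8, 29.8 and 28.96 in IL-10-Fc, 37.7, 37.1 and 16.7 in aCSF1R and 27.5, 20.96 and 30.5 in BF10. The IL-10-Fc libraries lay above all control libraries. Nusap1, which bundles microtubules, was at 29.2, 36.5 and 23.6 TPM in control, 40.7, 37.2 and 42.6 in IL-10-Fc, 37.1, 45.6 and 26.6 in aCSF1R and 29.4, 39.7 and 45.3 in BF10. It showed the same order of IL-10-Fc and control. Prc1, which crosslinks the central spindle, was at 22.8, 77.2 and 17.6 TPM in control, 108, 71.7 and 45.98 in IL-10-Fc, 107, 118 and 18.4 in aCSF1R and 82.3, 28.8 and 103 in BF10. Its lower-sum libraries, at 71.7 to 118 TPM, lay above its higher-sum ones, at 17.6 to 45.98 TPM. The 7 genes of this role differed from control by 0.35 (Nusap1) to 0.97 (Prc1) with BF10, 0.44 (Nusap1) to 1.15 (Prc1) with IL-10-Fc and 0.27 (Nusap1) to 0.95 (Prc1) with aCSF1R.

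The last role, chromosome structure, held the marker most used for proliferation. Mki67, which coats mitotic chromosomes, was at 62.6, 61.6 and 53.3 TPM in control, 54.9, 63.05 and 83.5 in IL-10-Fc, 61.5, 68.7 and 69.2 in aCSF1R and 47.03, 97.1 and 56.97 in BF10. Top2a, the topoisomerase that untangles sister chromatids, was at 427, 298 and 314 TPM in control, 348, 367 and 544 in IL-10-Fc, 375, 344 and 457 in aCSF1R and 312, 569 and 349 in BF10. In both, IL-10-Fc replicate 7 and BF10 replicate 6 were the highest libraries, and all groups overlapped. Mki67 differed from control by 0.11 ± 0.28 with BF10, 0.16 ± 0.28 with IL-10-Fc and 0.17 ± 0.28 with aCSF1R. The differences of Top2a were 0.21 ± 0.28 with BF10, 0.27 ± 0.28 with IL-10-Fc and 0.19 ± 0.28 with aCSF1R.

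**Figure D2:**
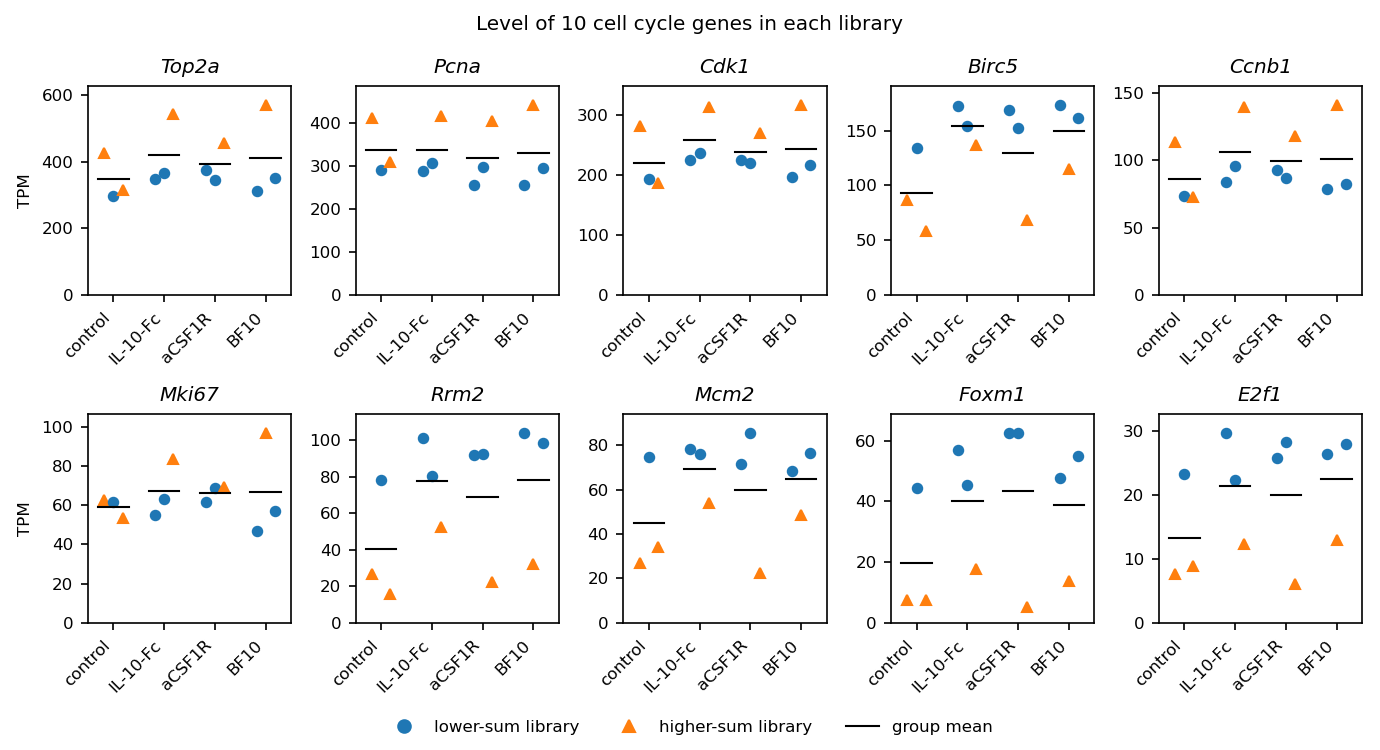
TPM of 10 members in each of the 12 libraries, by group, with circles for lower-sum and triangles for higher-sum libraries and a bar at each group mean (3 libraries). Foxm1, E2f1, Rrm2 and Mcm2 fall apart by symbol rather than by group, and Pcna shows the opposite order of symbols.

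The comparison of each treatment with control asked whether treated tumors expressed more or less of the program. No member passed, where passing means a Benjamini-Hochberg adjusted p below 0.05 in limma, over all genes tested, and a change of at least 1.5-fold. In BF10 against control 0 of 46 members passed, as did 0 of all 15504 genes (0%). In IL-10-Fc against control 0 of 46 passed, beside 0.00645% of all genes. In aCSF1R against control 0 of 46 passed, beside 0.568%. At an unadjusted p below 0.05 the numbers of members were 1, 4 and 0 of 46, beside 1.51%, 1.44% and 3.46% of all genes. The members nearest to the threshold were Cenpe in BF10 (unadjusted p = 0.0157 in limma), Ttk in IL-10-Fc (0.0252) and Hmmr in aCSF1R (0.0893), with adjusted p = 0.788, 0.738 and 0.893. On the lower side it was Ccne2 in each of the 3, with adjusted p = 0.788, 0.938 and 0.893.

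Most members had a positive difference from control without passing. This was so for 44 members with BF10, 44 with IL-10-Fc and 42 with aCSF1R, and the 3 comparisons share their control libraries. Of all genes tested 77.4%, 79.7% and 73.5% were positive too. The median log2 difference of the members was 0.62, 0.73 and 0.46, beside 0.32, 0.35 and 0.24 over all genes tested, so relative to all genes it was 0.30, 0.38 and 0.22. Scaling by the median of ratios took the shift of all genes away, to 0.012, -0.0050 and 0.032, and the members' medians became 0.25, 0.30 and 0.22. Under that scaling Mki67, Cdk1, Ccnb1, Top2a, Bub1 and Tyms turned to negative differences in all 3 comparisons, so no direction can be given for them. The library sets were uneven between the groups, and 2 of 3 control libraries were higher-sum, more than in any treated group. With the set as a term the members' medians were 0.38, 0.50 and 0.23. Within the 7 lower-sum libraries they were 0.12, 0.16 and 0.23, and within the 5 higher-sum ones 0.71, 0.84 and 0.012. Each set left at least 1 group with a single library, assumed to vary like the others. No member was called with the set as a term, beside 0.00645%, 0.0258% and 2.01% of all genes. None was called under scaling by the median of ratios, beside 0, 1 and 137 of all 15504 genes. Calls within a single set are not counted, because a group of 1 library has no spread of its own.

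The intervals show what sizes the data leave possible for TPM values, and the members' differences depend on the scaling, as given above. With all 12 libraries the median SE of a member was 0.41, and the 95% interval lay within a 2-fold change in either direction for 10 of 46 members with BF10, 11 with IL-10-Fc and 13 with aCSF1R. A fall of 2-fold or more was outside the interval of 45, 46 and 42 of them. With the library set as a term the median SE was 0.23, a fall of that size was outside all 46 intervals in each comparison, and the numbers within 2-fold were 30, 25 and 43.

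**Figure D3:**
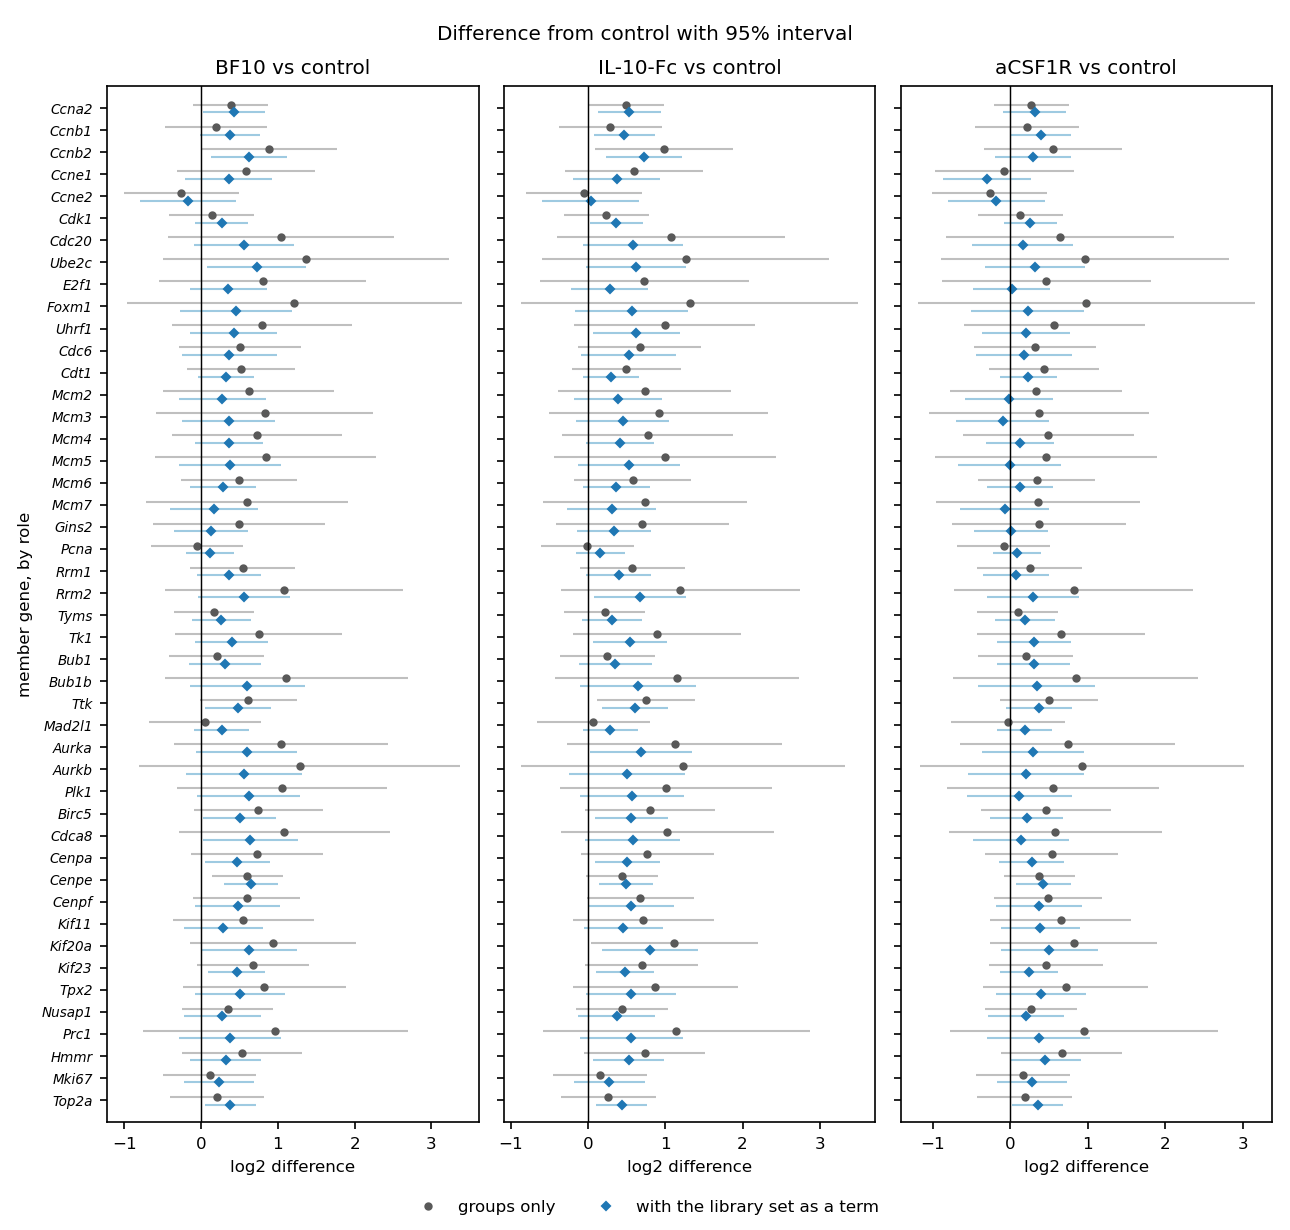
Log2 difference from control of each of the 46 members (rows, by role) with its 95% interval, for BF10, IL-10-Fc and aCSF1R, from the fit with groups only (gray circles) and with the library set as a term (blue diamonds). The points lie mostly right of 0 and the blue intervals are shorter, with medians of 0.38, 0.50 and 0.23 for the diamonds, and no member passed in either fit.

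Groups without overlap were counted as a description. All IL-10-Fc libraries lay above all control libraries for 8 of 46 members (17.4%), beside 4.75% of all genes tested. These were Ccna2, Ccnb2, Ttk, Birc5, Cenpe, Cenpf, Nusap1 and Hmmr, all of them G2/M members. For BF10 there were 3 such members, Ttk, Cenpe and Cenpf (6.52%, beside 2.36%), and for aCSF1R 1, Cenpe (2.17%, beside 1.61%). No member had all treated libraries of a group below all control libraries, beside 1.17%, 1.78% and 3.68% of all genes in BF10, IL-10-Fc and aCSF1R. The control libraries are the same in each count, and 2 of them are higher-sum.

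The fusion was then set against its parts. In BF10 against IL-10-Fc no member passed, beside 0% of all genes, and none had an unadjusted p below 0.05, beside 0.271%. The median difference of the members was -0.084 (all genes -0.047), and single members ran only from -0.21 (Gins2, a subunit of the active helicase) to 0.16 (Cenpe). Without BF10 replicate 6 the median turned to 0.083. With the library set as a term the 95% interval lay within 2-fold for all 46 members, and no member passed in the 3 comparisons of treated groups, beside 0%, 2.82% and 2.13% of all genes for BF10 against IL-10-Fc, BF10 against aCSF1R and IL-10-Fc against aCSF1R. In BF10 against aCSF1R 0 of 46 passed, beside 0.735% of all genes, and the median was 0.19 (all genes 0.056). Ccne1 had the largest difference, 0.66 ± 0.41 with adjusted p = 1 in limma. In IL-10-Fc against aCSF1R 0 of 46 passed, beside 0.542%, and the median was 0.26 (all genes 0.11). Both medians against aCSF1R rested on aCSF1R replicate 8, a higher-sum library, and turned to -0.25 and -0.18 without it. Ccna2, Ccne1 and Rrm1 were the 3 members (6.52%, beside 5.90% of all genes) whose IL-10-Fc libraries all lay above the aCSF1R ones. None had them all below, beside 1.60% of all genes, and for BF10 against aCSF1R no member was without overlap, beside 4.33% higher and 1.58% lower. At an unadjusted p below 0.05 there was no member in either comparison, beside 4.26% and 3.56% of all genes.

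Whether BF10 departed from the sum of its parts was tested by subtracting, from its own difference from control, the differences of both single agents. No member passed, beside 0.29% of all genes, and the median was -0.51 (all genes -0.28). Hmmr had the smallest p on the lower side, at -0.87 ± 0.50 with adjusted p = 0.975 in limma. With a median SE of 0.57 the interval lay within 2-fold for 3 of 46 members, and no member had an unadjusted p below 0.05, beside 2.43% of all genes. None passed with the library set as a term, beside 1.21% of all genes. In the fit with groups only, 4 of 10 macrophage markers were called higher in this contrast, beside 0.284% of all genes. In that fit 6 of 10 were lower in aCSF1R than in control, beside 0.568% of all genes. Both counts were 8 with the library set as a term.

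The library sets separated the members on a larger scale and were compared with the groups kept in the fit. The sum that defines the sets is also the divisor that gives TPM. Compared with FPKM, that division by itself shifts every gene downward in higher-sum relative to lower-sum libraries. In higher-sum against lower-sum libraries 31 of 46 members passed (67.4%), beside 59.2% of all genes, so the members' share was near that of the genome. Of these 30 were lower, beside 54.0% of all genes, and 1 was higher, beside 5.23%. The median of the members was -0.78 (all genes -0.68). On the deposited FPKM values, without that division, the median of all genes was -0.33. Foxm1 (-2.27 ± 0.24), Aurkb (-2.16 ± 0.25), Ube2c (-1.93 ± 0.21), Prc1 (-1.75 ± 0.22) and Rrm2 (-1.56 ± 0.20) were lower by the most. Mad2l1, at 0.66 ± 0.12, was the 1 member that was higher. Ccnb1, Top2a and Pcna, at 0.53 ± 0.13, 0.51 ± 0.11 and 0.50 ± 0.10, had adjusted p = 0.00332, 0.00148 and 0.00107 in limma and missed the 1.5-fold bound. Ccna2 (0.13 ± 0.13), Cenpe (0.15 ± 0.12) and Nusap1 (-0.21 ± 0.16) differed the least. The sets did not overlap for 25 members that were lower (54.3%, beside 48.8% of all genes) and for 1 that was higher, Pcna (2.17%, beside 6.23%).

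The direction of these set differences depends on the scaling. Scaling by the median of ratios moved the median of all genes from -0.68 to -0.020, and then 12 members were higher and 7 lower, beside 23.3% and 19.8% of all genes. Ratios between members within a library are free of that choice. Each pair below joins a member with a positive set difference in TPM to one with a negative difference. That the ratios differ between the sets follows from those values and is no separate test. The ratio of Ccnb1 to Ccnb2, the paired B cyclins, was 0.639 to 0.792 in the 7 lower-sum libraries and 1.34 to 2.44 in the 5 higher-sum ones, so their order of level turned over. Top2a stood at 5.53 to 8.12 times Foxm1 in lower-sum and 30.6 to 88.2 times in higher-sum libraries. Pcna stood at 2.39 to 2.84 times Mcm5 against 5.94 to 18.7 times. No ratio of these 3 overlapped between the sets.

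Base composition moved with the set difference. Across the 46 members the set difference and the GC share of the longest transcript had a Pearson r of -0.64 and a Spearman rho of -0.64, against -0.34 and -0.36 across the 15486 genes with an annotated transcript. The genes of a library are not independent, and these values describe the members only. The 11 members with a positive difference had a median GC share of 44.2% and the 35 with a negative one 49.3%. Foxm1 has a GC share of 54.6%, Aurkb 52.5% and Ube2c 55.5%, while Mad2l1 has 40.1%, Top2a 43.4% and Ccnb1 44.2%. Prc1, at 43.3%, and Rrm2, at 46.0%, were as low as GC-rich members. Length ran in opposite directions, and the Spearman rho with transcript length was 0.33 across members and -0.34 across all genes. When medians by GC share and length were removed from each library, a step chosen after the data were seen, 10 members were higher and 6 lower, beside 15.2% and 15.3% of all genes. Prc1 and Aurkb, at -1.33 and -1.22, were then the lowest, and Cdk1 and Mki67, at 1.33 and 1.23, the highest. What differed between the sets was not tested.

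**Figure D4:**
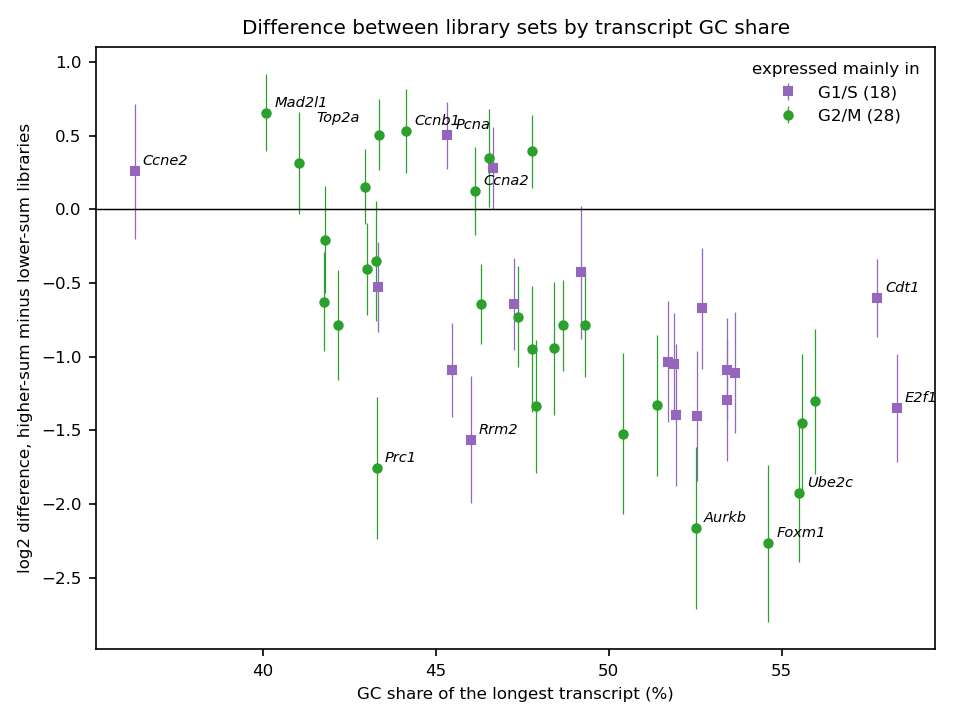
Log2 difference between higher-sum (5) and lower-sum (7) libraries of each member, with its 95% interval, against the GC share of its longest transcript in percent, with squares for 18 G1/S and circles for 28 G2/M members. GC-rich members lie lower (Pearson r = -0.64), and Prc1 and Rrm2 lie below members of like GC share.

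The balance of both waves was described as the mean log2 level of the 28 G2/M members minus that of the 18 G1/S members in each library. The lists differ in base composition, with a median GC share of 47.0% in G2/M and 51.8% in G1/S members. The score is therefore a contrast of GC share as well as of phase. This was -0.00063, -0.19 and -0.077 in control, -0.019, -0.028 and 0.085 in IL-10-Fc, 0.17, 0.051 and 0.12 in aCSF1R and -0.032, 0.15 and 0.033 in BF10. All aCSF1R libraries lay above all control libraries, while IL-10-Fc and BF10 overlapped control. A value of 0 marks no boundary here, since the score compares different genes. With GC and length medians removed the values were -0.14, -0.13 and -0.13 in control, 0.064, 0.041 and 0.029 in IL-10-Fc, 0.23, 0.11 and -0.048 in aCSF1R and 0.060, 0.086 and 0.12 in BF10. The 3 control libraries were then close together, whichever set they belonged to, and below all 9 treated libraries. No p is given for this score, which was described after its values were seen. With the library set as a term, the difference from control was positive for all 28 G2/M members in each of the 3 comparisons and for 17, 18 and 12 of 18 G1/S members in BF10, IL-10-Fc and aCSF1R, beside 62.4%, 69.1% and 51.2% of all genes. The G2/M medians were 0.47, 0.55 and 0.30 and the G1/S medians 0.36, 0.38 and 0.078, beside 0.068, 0.10 and 0.0068 over all genes. The genes of a library are not independent and the 3 comparisons share their control libraries. The counts of signs are therefore a description and not repeated evidence. These signs were taken from TPM values only. With the set term in the fit, they were not examined under another scaling. Scaled by the median of ratios, without the set term, the G2/M members Mki67, Cdk1, Ccnb1, Top2a and Bub1 were negative in all 3 comparisons. With medians by GC share and length removed, also without that term, Cdk1 and Mki67 were negative in all 3.

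**Figure D5:**
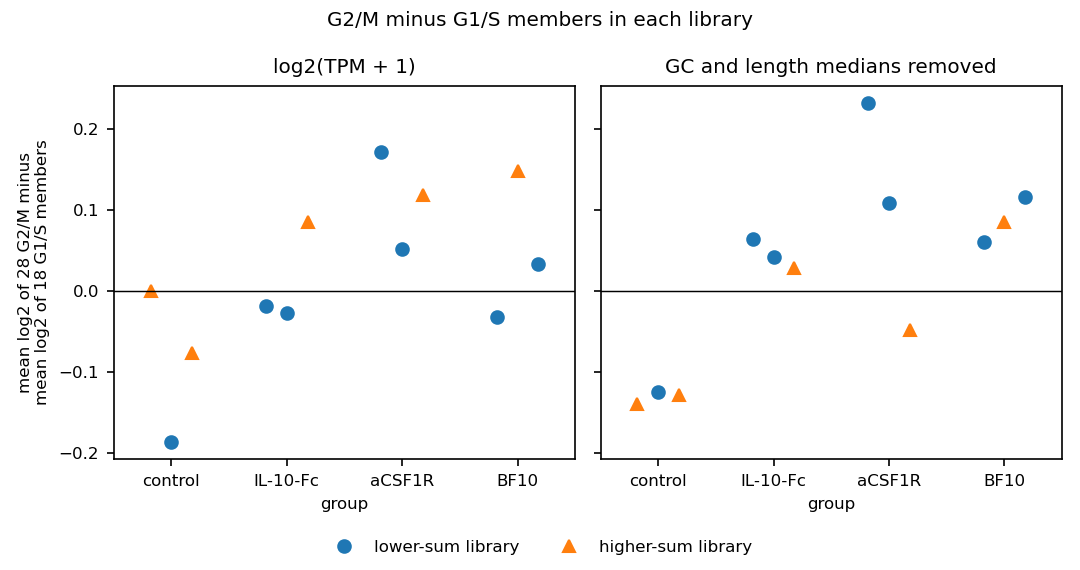
Mean log2 level of 28 G2/M members minus that of 18 G1/S members in each library, by group, before (left) and after (right) medians by GC share and length were removed, with circles for lower-sum and triangles for higher-sum libraries. On the right the 3 control libraries lie between -0.14 and -0.13 and the 9 treated libraries between -0.048 and 0.23.

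Other genes of the pathway gave the same count. None of 38 further replication genes, 47 further mitotic genes, 23 tested G1 regulators and inhibitors (of 24) or 15 E2F and DREAM factors passed in any comparison of groups, with or without the library set as a term. Of all genes tested 0% to 0.735% passed in these comparisons with groups only and 0% to 2.82% with the set term. In BF10, IL-10-Fc and aCSF1R against control the median difference over all genes tested was 0.32, 0.35 and 0.24. In that order it was 0.32, 0.43 and 0.25 for replication genes and 0.59, 0.63 and 0.47 for mitotic genes. For G1 regulators it was 0.40, 0.49 and 0.28, and for E2F and DREAM factors 0.44, 0.53 and 0.34. The replication genes thus lay near all genes. Between the library sets 14 replication genes were lower and 1 higher (Rpa3, the small subunit of the single-strand binding complex), and 21 mitotic genes were lower and 5 higher (Pttg1, Kif18a, Cks2, Smc2 and Depdc1a). Of the G1 regulators 12 were lower and 0 higher, and of the E2F and DREAM factors 11 lower and 0 higher, beside the 54.0% and 5.23% of all genes given above.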

How the data were processed

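RNA from 12 whole 4T1 tumors was sequenced as stranded poly(A) libraries. The authors deposited 1 table of FPKM values for 55401 genes of the GRCm38 (mm10) mouse genome, and the submitters' processing notes name STAR 2.7.5a, RSEM 1.3.3 and DESeq2 1.28.0 without a role. Another 4 deposited tables hold the authors' own comparisons (mean normalised level, log2 fold change, SE, p and adjusted p) and were not used. Here FPKM values were scaled to a total of 1000000 per library (TPM), and genes with at least 1 TPM in at least 3 libraries were kept. Differences of log2(TPM + 1), which understate changes of low genes, were fitted in limma 3.58.1 (R 4.3.3, trended prior variance) with 1 mean per group, and p-values were adjusted by Benjamini-Hochberg over all genes tested. The script was tested on simulated data. p-values measure the spread between the numbered samples of a group. Alternatives were another pseudocount, scaling, filter, library set, replicate block, GC and length correction, and each library left out. The members and gene lists were chosen with earlier results of these data known. Named with values in every library were 10 set members, up to 5 members that passed in each direction with groups that do not overlap or, where none passed, the member with the smallest p, and in the library set comparison the 3 members with the largest and the 3 with the smallest differences. Other members were named after their values were seen. Promoters came from RefSeq (GRCm38.p6).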

Additional observations from a re-analysis of the deposited data

How the results depend on the processing

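In the 7 comparisons of groups no member was called, by limma, under any alternative that keeps more than 1 library in every group. This says little where almost no gene was called at all. With groups only, 0 of all 15504 genes were called in BF10 vs control and in BF10 vs IL-10-Fc, and 1 in IL-10-Fc vs control. The fit with the replicate block could call almost no gene either. The values that changed direction or moved by more than the spread are given here as log2 differences, and the cause was not tested. With 3 libraries per group, the 95% interval in the fit with groups only lay within 2-fold for 10 to 13 of 46 members against control. The fits within 1 set leave groups with a single library, so their calls are not counted. The replicate numbers did not pair the samples: the correlation of deviations ran from -0.663 to 0.417 over 7 pairs of libraries that share a number. The fit with the block has 2 residual degrees of freedom and called 0 or 1 of all 15504 genes in each comparison of groups, so its 0 members called say nothing of stability. On the deposited FPKM values without rescaling, Cdk1 was -0.053 in BF10 vs control and -0.054 in aCSF1R vs control, Mki67 was -0.072 in BF10 vs control, -0.051 in IL-10-Fc vs control and -0.014 in aCSF1R vs control and Nusap1 was 0.22 in higher-sum vs lower-sum. There the median of members was -0.35 in higher-sum vs lower-sum. With the library set as a term, Ccne2 was 0.034 in IL-10-Fc vs control and -0.024 in the non-additive contrast, Mcm2 was -0.014 in aCSF1R vs control and Pcna was 0.12 in BF10 vs control, 0.16 in IL-10-Fc vs control and 0.082 in aCSF1R vs control. With medians by GC share and length removed, Cdk1 was -0.25 in BF10 vs control, -0.22 in IL-10-Fc vs control and -0.20 in aCSF1R vs control, Mcm2 was -0.021 in aCSF1R vs control and Mki67 was -0.18 in BF10 vs control, -0.20 in IL-10-Fc vs control and -0.20 in aCSF1R vs control. There Nusap1 was 0.12 in higher-sum vs lower-sum, Top2a was -0.014 in IL-10-Fc vs control and -0.043 in aCSF1R vs control and the median of members was -0.0067 in higher-sum vs lower-sum. There the number of members called was 16 in higher-sum vs lower-sum. Within the 5 higher-sum libraries, Birc5 was -0.049 in aCSF1R vs control, Ccne2 was 0.17 in BF10 vs control, 0.20 in IL-10-Fc vs control, 0.080 in aCSF1R vs control and -0.11 in the non-additive contrast and E2f1 was -0.40 in aCSF1R vs control. There Foxm1 was -0.45 in aCSF1R vs control, Hmmr was 0.31 in BF10 vs aCSF1R and Mcm2 was -0.43 in aCSF1R vs control. There Mki67 was 0.27 in IL-10-Fc vs aCSF1R, Pcna was 0.31 in BF10 vs control, 0.22 in IL-10-Fc vs control and 0.18 in aCSF1R vs control and the median of members was 0.72 in BF10 vs aCSF1R and 0.90 in IL-10-Fc vs aCSF1R. Within the 7 lower-sum libraries, Mcm2 was -0.039 in BF10 vs control, Mki67 was -0.25 in BF10 vs control and -0.064 in IL-10-Fc vs control and Pcna was 0.033 in IL-10-Fc vs control. There the median of members was 0.12 in BF10 vs control and 0.16 in IL-10-Fc vs control. With the replicate number as a block, Ccnb1 was -0.24 in aCSF1R vs control, Ccne2 was 0.033 in IL-10-Fc vs control and Cdk1 was -0.22 in aCSF1R vs control. There Mki67 was 0.40 in IL-10-Fc vs aCSF1R and -0.075 in aCSF1R vs control, Top2a was -0.20 in aCSF1R vs control and the median of members was -0.39 in IL-10-Fc vs aCSF1R, 1.44 in aCSF1R vs control, -0.36 in higher-sum vs lower-sum and -1.35 in the non-additive contrast. There the number of members called was 12 in higher-sum vs lower-sum. With scaling by the median of ratios, Ccnb1 was -0.18 in BF10 vs control, -0.16 in IL-10-Fc vs control and -0.021 in aCSF1R vs control, Cdk1 was -0.25 in BF10 vs control, -0.21 in IL-10-Fc vs control and -0.11 in aCSF1R vs control and Mki67 was -0.27 in BF10 vs control, -0.28 in IL-10-Fc vs control and -0.068 in aCSF1R vs control. There Nusap1 was 0.65 in higher-sum vs lower-sum, Top2a was -0.17 in BF10 vs control, -0.19 in IL-10-Fc vs control and -0.053 in aCSF1R vs control and the median of members was 0.084 in higher-sum vs lower-sum. There the number of members called was 19 in higher-sum vs lower-sum. Leaving out each library in turn, the median of members ran from 0.45 to 0.99 in BF10 vs control, 0.51 to 1.09 in IL-10-Fc vs control, 0.25 to 0.95 in aCSF1R vs control, -0.18 to 0.083 in BF10 vs IL-10-Fc, -0.25 to 0.40 in BF10 vs aCSF1R, -0.18 to 0.51 in IL-10-Fc vs aCSF1R, -1.03 to -0.29 in the non-additive contrast and -0.93 to -0.60 in higher-sum vs lower-sum, and 26 to 33 members were called between the library sets. Turning sign in at least 1 of these, Ccnb1 ran from -0.069 to 0.41 in BF10 vs control, Ccne2 ran from -0.59 to 0.0087 in BF10 vs control, -0.38 to 0.21 in IL-10-Fc vs control and -0.20 to 0.39 in the non-additive contrast and Cdk1 ran from -0.068 to 0.32 in BF10 vs control. Also without 1 library each, Cenpe ran from -0.028 to 0.29 in BF10 vs IL-10-Fc, Hmmr ran from -0.51 to 0.058 in BF10 vs aCSF1R and Mcm2 ran from -0.030 to 0.92 in aCSF1R vs control. Also without 1 library each, Mki67 ran from -0.19 to 0.33 in BF10 vs control, -0.17 to 0.13 in IL-10-Fc vs aCSF1R and -0.0045 to 0.29 in IL-10-Fc vs control, Pcna ran from -0.28 to 0.12 in BF10 vs control, -0.17 to 0.15 in IL-10-Fc vs control and -0.27 to 0.067 in aCSF1R vs control and Top2a ran from -0.050 to 0.38 in BF10 vs control.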

Other observations

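Cdkn1a, the p21 inhibitor of cyclin-dependent kinases and no member of the list, was picked after its values were seen. It stood at 13.1, 27.2 and 19.4 TPM in control, 40.0, 44.2 and 26.6 in IL-10-Fc, 31.6, 20.1 and 4.69 in aCSF1R and 49.8, 20.8 and 41.5 in BF10. The groups that received IL-10 held the 4 highest libraries, and all groups overlapped. The difference from aCSF1R was 1.24 ± 0.59 in IL-10-Fc and 1.20 ± 0.59 in BF10, with adjusted p = 1 for the first in limma. With the library set as a term its adjusted p was 0.0932 and 0.0917 in limma, so it passed in neither fit. Within the 7 lower-sum libraries the differences were 0.72 ± 0.23 and 0.83 ± 0.23, with adjusted p = 0.418 and 0.244 in limma. The lowest library, aCSF1R replicate 8, is higher-sum, and Cdkn1a was lower in higher-sum libraries, at -1.17 ± 0.24.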
